A study of Homo sapiens with 21 samples.

Results

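The stretch of chromosome 1 from 40 to 100 Mb (GRCh38), the middle of the short arm 1p without its outer 40 Mb, held 2775 of the 367900 ATAC-Seq consensus sites. Members were all sites on chromosome 1 whose start lay between those positions, and the stretch was selected on the log2 change after combined silencing of ARID1A and ARID1B against Control, by which distal sites of several of its 1 Mb windows lay lowest. Values of combined silencing against Control are therefore given as a description, without a test. Chromatin accessibility had been measured in the neuroblastoma line SK-N-BE(2), which is established and of human origin, 72 h after lentiviral transduction of short hairpin RNAs (shRNAs). The 21 libraries formed 7 groups of 3, namely Control, shARID1A.2 and shARID1A.4 (2 shRNAs against ARID1A), shARID1B.2 and shARID1B.3 (2 against ARID1B), and the combinations shARID1A/B.2.3 and shARID1A/B.4.2 against both genes. All groups came from the same line, so that no other neuroblastoma background was sampled, and the series describes its replicates as biological triplicates. Accessibility does not measure the knockdown, and ARID1A itself lies outside the stretch.

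ARID1A and ARID1B are mutually exclusive structural subunits of the BAF complex, an ATP-driven remodeller that slides and evicts nucleosomes and keeps many enhancers open. Promoters are mostly held open by other means, among them related remodellers. Loss of one copy of 1p is a recurrent event in aggressive neuroblastoma, and the arm carries developmental regulators, neuronal adhesion genes and signalling receptors.

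Sites annotated by HOMER as promoter-TSS were taken as promoters, and sites over 3000 bases from the nearest transcription start site (TSS) and not so annotated as distal. Sites are named after the closest gene, whether or not they act on it. The windows shown here are the central 300 bases of the 4 distal sites with the lowest combined log2 change and of the highest one, since these sites carry the extremes of the stretch. They were read from the plus strand of GRCh38, and capitals mark matches on either strand to words known from the AP-1 family (TGACTCA), from basic helix-loop-helix factors (CAGATG, the E-box, and its variant CAGCTG), from GATA factors (AGATAA), from TEAD factors (GGAATG) or from homeodomain factors (TAATTA). None of these words contains another. Over all tested distal sites, windows of this length held TGACTCA in 6.68%, CAGATG in 23.6%, CAGCTG in 17.5%, AGATAA in 17.7%, GGAATG in 17.1% and TAATTA in 8.22%.

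FOXD2 site, chr1:47618491-47618790: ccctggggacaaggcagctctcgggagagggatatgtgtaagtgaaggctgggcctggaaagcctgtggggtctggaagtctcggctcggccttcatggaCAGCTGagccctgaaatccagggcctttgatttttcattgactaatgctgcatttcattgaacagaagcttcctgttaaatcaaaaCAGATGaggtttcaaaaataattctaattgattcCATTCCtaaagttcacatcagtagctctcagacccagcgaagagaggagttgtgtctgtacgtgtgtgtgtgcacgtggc
MIR4711 site, chr1:59635105-59635404: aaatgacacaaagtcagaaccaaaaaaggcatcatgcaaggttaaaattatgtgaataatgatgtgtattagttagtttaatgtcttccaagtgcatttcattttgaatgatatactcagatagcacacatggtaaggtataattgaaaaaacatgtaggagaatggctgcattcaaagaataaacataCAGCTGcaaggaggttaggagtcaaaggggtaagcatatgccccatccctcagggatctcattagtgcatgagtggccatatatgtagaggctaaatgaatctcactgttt
TRABD2B site, chr1:47806068-47806367: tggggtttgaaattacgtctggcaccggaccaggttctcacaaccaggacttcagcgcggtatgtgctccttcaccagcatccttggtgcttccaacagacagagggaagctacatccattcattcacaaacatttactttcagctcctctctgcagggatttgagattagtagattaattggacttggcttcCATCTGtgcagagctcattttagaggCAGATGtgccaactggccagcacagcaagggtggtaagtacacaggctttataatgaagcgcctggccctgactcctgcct
MIR4422 site, chr1:55774886-55775185: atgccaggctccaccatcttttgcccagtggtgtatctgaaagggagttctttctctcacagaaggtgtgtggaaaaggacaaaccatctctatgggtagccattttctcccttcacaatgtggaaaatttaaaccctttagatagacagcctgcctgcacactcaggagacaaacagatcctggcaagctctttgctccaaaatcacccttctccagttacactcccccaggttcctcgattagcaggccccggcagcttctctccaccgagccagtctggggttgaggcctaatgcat
MIR137HG site, chr1:98129443-98129742: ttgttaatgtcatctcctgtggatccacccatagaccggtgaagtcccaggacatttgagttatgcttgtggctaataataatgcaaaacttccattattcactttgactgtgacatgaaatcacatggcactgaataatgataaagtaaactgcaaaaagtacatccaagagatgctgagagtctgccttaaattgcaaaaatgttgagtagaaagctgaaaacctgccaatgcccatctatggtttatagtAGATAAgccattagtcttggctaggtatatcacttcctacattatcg

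The window near FOXD2 held 3 matches, those near TRABD2B 2, those near MIR4711 and MIR137HG 1 each, and that near MIR4422 none. A match is a description of the letters and does not show that a factor binds.

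Reads in sites ranged from 16140029 to 44472230 per library, a 2.76-fold span, so that counting error was smaller in the deeper ones. Accessibility is given as CPM (counts per 1e+06 reads in sites, after TMM scaling). The stretch was sparse, with 46.2 sites per Mb against a median of 120 over all 1 Mb bins of the genome and 18 to 85 sites in each of its own bins. After the filter on low counts 2699 members were tested, of which 2325 were distal, 201 promoters and 173 flanking sites between these classes. The 76 members removed were all distal. In Control, the promoter sites of the adrenergic neuroblastoma markers HAND2, DBH and TH measured 42.0 to 47.0, 8.67 to 11.4 and 2.06 to 2.84 CPM, beside a median of 10.9 CPM over all promoter sites. Of 7 markers of other cell types only CDH5 had a promoter-TSS site in the set, at 1.85 to 2.29 CPM.

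Distal sites of the stretch lost accessibility after silencing of either subunit. After ARID1A silencing 462 of 2325 distal members (19.9%) fell, against 5.62% of all distal sites, and 12 (0.516%) rose, against 0.760%. After ARID1B silencing 337 (14.5%) fell, against 3.78%, and 23 (0.989%) rose, against 1.0%. These calls are from the edgeR quasi-likelihood test, with a threshold of 0.01 on the false discovery rate (FDR) over all sites, and both comparisons use the Control libraries that also entered the contrast by which the stretch was chosen. The median log2 change of distal members was -0.26 after ARID1A and -0.18 after ARID1B silencing, beside -0.03 and -0.02 over all distal sites. The first quartile lay at -0.64 and -0.51. After combined silencing the median was -0.46, beside 0.02 over all distal sites, and 877 members (37.7%) passed the threshold downwards and 28 (1.2%) upwards, beside 10.7% and 1.76% of all distal sites. From that contrast nothing is read here, since it chose the members.

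Each shRNA was also set against Control by itself. Of the 2325 distal members, 376 (16.2%) fell with shARID1A.2 and 355 (15.3%) with shARID1A.4, against 4.76% and 4.35% of all distal sites. With shARID1B.2 163 (7.01%) fell and with shARID1B.3 446 (19.2%), against 1.95% and 5.30%, so that the gap between the ARID1B shRNAs was also there over all distal sites. The median log2 changes of the members were -0.20 and -0.21. The shARID1B.3 libraries included the deepest of the series. As a description, 868 members passed downwards with shARID1A/B.2.3 and 619 with shARID1A/B.4.2, beside 10.9% and 7.66% of all distal sites.

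The rest of chromosome 1 and the sparse start of chromosome 3 were measured the same way. Beyond 100 Mb of chromosome 1, 5.75% of 18362 distal sites fell after ARID1A and 3.75% after ARID1B silencing, close to the shares over all sites. In the first 40 Mb of chromosome 1, at 55.1 sites per Mb, these shares were 16.3% and 7.46% of 1609 distal sites. In the first 60 Mb of chromosome 3, at 36.8 sites per Mb, they were 23.1% and 16.1% of 1752. The start of chromosome 3 thus gave shares at least as high as the stretch, which did not stand alone.

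The share of distal reads that lay in the stretch gives 1 value per library and does not depend on the scaling. In Control it was 0.781%, 0.791% and 0.795%. It lay between 0.660% and 0.715% (median 0.694%, n = 6) after ARID1A and between 0.652% and 0.726% (median 0.701%, n = 6) after ARID1B silencing, so that no silenced library reached the Control range. The difference was -0.098 percentage points for ARID1A and -0.0906 for ARID1B, each with p = 0.0238 in a two-sided exact permutation test over libraries, the smallest this design can give, and 0.0357 after adjustment over 3 tests. Between ARID1A and ARID1B silencing the share differed by -0.00743 points and the libraries overlapped (exact permutation p = 0.6). The 6 libraries of a gene are 3 replicates of 2 shRNAs, with means of 0.680% and 0.702% (ARID1A) and 0.719% and 0.678% (ARID1B). These tests took libraries as interchangeable, so p does not measure the spread between shRNAs. Combination libraries held 0.562% to 0.646%. Leaving out 1 Control library puts the smallest reachable p at 0.0714, so that neither call can then be made. The differences were then -0.0946 to -0.102 for ARID1A and -0.0871 to -0.0944 for ARID1B. In the first 60 Mb of chromosome 3 the share was 0.558% to 0.585% in Control and 0.479% to 0.533% after silencing of 1 gene, also without overlap. In the first 40 Mb of chromosome 1 these ranges overlapped (0.457% to 0.579% and 0.443% to 0.592%).

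**Figure D1:**
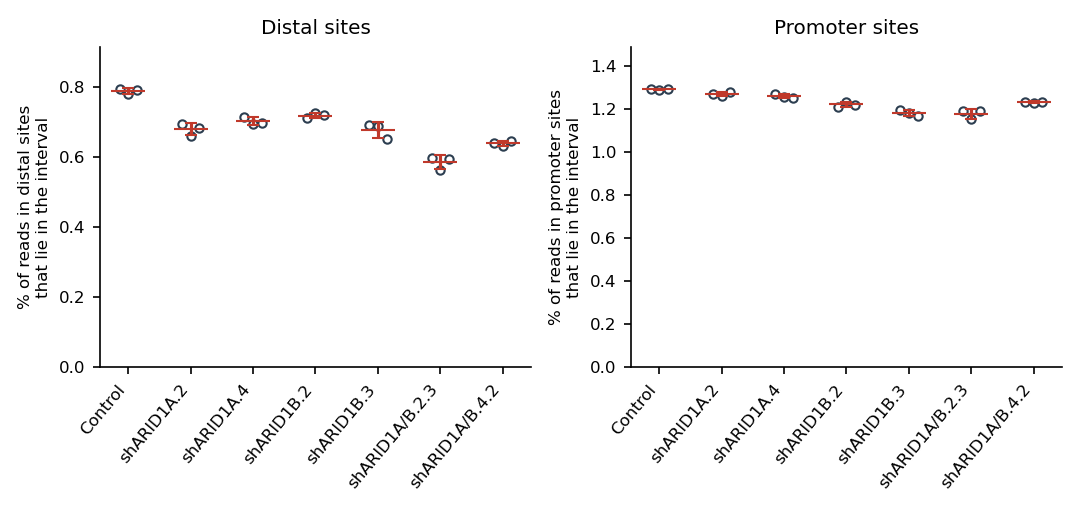
Percent of the reads in distal sites (left) and in promoter sites (right) that lie between 40 and 100 Mb of chromosome 1, for each of the 3 libraries (circles) of the 7 groups, with mean and SD in red. All libraries with 1 gene silenced lie below the 3 Control libraries on the left. The combinations entered the contrast that chose the stretch, so their position is a description.

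By 1 Mb bin, with distal counts summed, the change was spread over the stretch rather than held in a few windows. Of the 60 bins, 37 (61.7%) fell after ARID1A silencing, against 30.6% of all bins, and 27 (45.0%) after ARID1B silencing, against 18.1%. No bin rose in either comparison or between the subunits, beside 1.27%, 2.16% and 0.926% of all bins, so the absence is near the background. The median bin changed by -0.27 and -0.22 on the log2 scale, beside -0.09 and -0.04 over all bins. The log2 change was negative in 55 and 54 of the 60 bins, a count not made over all bins. After combined silencing the median bin lay at -0.48 and 52 of 60 bins passed downwards, beside 47.8% of all bins. Single shRNAs against ARID1A gave 37 (shARID1A.2) and 29 bins lower (shARID1A.4), and those against ARID1B 14 (shARID1B.2) and 33 (shARID1B.3). Over all bins these shRNAs lowered 31.3%, 22.2%, 10.6% and 20.8%, in the same order.

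Sparse bins of the rest of the genome were considered next, since they resemble the stretch in density. The comparison took 790 other bins with at least 20 distal sites and no more sites than the fullest bin of the stretch. Of these, 29.6% fell after ARID1A and 18.7% after ARID1B silencing, with medians of -0.11 and -0.01. The 56 bins of the stretch with at least 20 sites gave 64.3% and 46.4%. Of all 2745 bins with that many sites, 15 of the 100 lowest after ARID1A silencing and 15 of the 100 lowest after ARID1B silencing lay in the stretch.

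**Figure D2:**
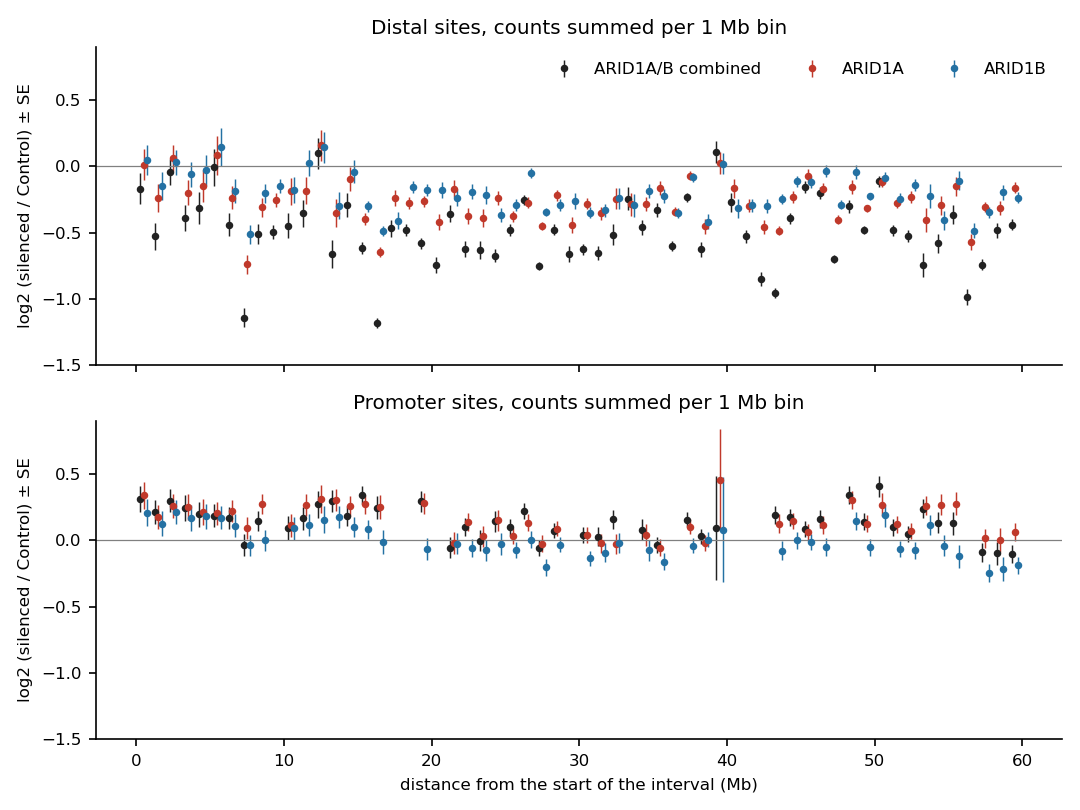
Log2 change against Control of counts summed per 1 Mb bin, for distal sites (top) and promoter sites (bottom), at the distance of each bin from the start of the stretch in Mb. Points are estimates and bars are SE, and most distal points lie below 0, whereas most promoter points lie near or above 0 with this scaling. Scaling on promoter sites moved the median of all promoters by -0.15 to -0.24 in these comparisons, which turns the promoter medians of the stretch negative.

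Among bins with at least 20 distal sites, those named had the lowest or highest change after combined silencing. The tests below reuse the Control libraries of that contrast. The bin from 56 to 57 Mb, next to the long noncoding gene LOC102724140 and the lipid phosphate phosphatase gene PPAP2B (PLPP3), was the lowest after combined silencing. Its 32 distal sites summed to 97.2, 94.9 and 94.1 CPM in Control, to 51.3 to 70.6 CPM (median 61.9, n = 6) after ARID1A silencing and to 55.1 to 79.8 CPM (median 69.2) after ARID1B silencing, with no overlap with Control. The log2 change was -0.65 (SE 0.04, edgeR FDR 1.41e-09) and -0.49 (SE 0.04, FDR 5.67e-08), beside -1.18 after combined silencing. The bin from 47 to 48 Mb, which holds FOXD2 and TRABD2B, followed with 49 distal sites that summed to 144, 126 and 150 CPM in Control and to 77.6 to 91.6 CPM after ARID1A and 88.1 to 107 CPM after ARID1B silencing. It changed by -0.74 (SE 0.07, FDR 3.91e-07) and -0.51 (SE 0.07, FDR 3.46e-05), the largest fall of any bin of the stretch in both comparisons, and lay at -1.14 after combined silencing. Promoter counts of these bins passed in neither comparison, at 0.25 and 0.10 after ARID1A silencing (FDR 0.0254 and 0.325) and -0.01 and -0.04 after ARID1B silencing (FDR 0.922 and 0.761).

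Of the bins next in order, 96 to 97 Mb changed by -0.57 and -0.49, 83 to 84 Mb by -0.49 and -0.25 and 82 to 83 Mb by -0.46 and -0.30 after ARID1A and ARID1B silencing, each past the threshold. At the other end of the order, the bin from 79 to 80 Mb, around the endothelial adhesion receptor gene ELTD1 (ADGRL4), measured 34.5 to 46.3 CPM in Control, 38.0 to 43.5 CPM after ARID1A and 35.6 to 42.3 CPM after ARID1B silencing. These ranges overlapped, and the estimates were 0.02 (SE 0.08) in both comparisons. The bins from 42 to 43 Mb and 90 to 91 Mb gave estimates between -0.12 and 0.06 in both comparisons, none past the threshold, although with libraries scaled on promoter sites the latter fell after ARID1A silencing (-0.32, FDR 0.00101).

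Single sites reached larger changes than bins. Of the sites with a mean of at least 1 CPM, the lowest and highest, distal and promoter, were picked, at most 1 per nearest gene. The pick went by their change from Control after combined silencing. Their tests against Control reuse those Control libraries. The lowest, an intergenic site at chr1:47618108-47619173, 182623 bases from the TSS of the forkhead transcription factor gene FOXD2, measured 9.82, 8.999 and 8.70 CPM in Control. It measured 1.42 to 2.29 CPM (median 1.60, n = 6) after ARID1A silencing, 1.47 to 4.33 CPM (median 3.23) after ARID1B silencing and 0.616 to 1.21 CPM with the combinations. The log2 change was -2.44 (SE 0.13, edgeR FDR 1.8e-28) for ARID1A and -1.61 (SE 0.11, FDR 1.02e-21) for ARID1B. A second site of this region, at chr1:47805857-47806577 in intron 2 of TRABD2B, which encodes a metalloprotease that inactivates Wnt proteins, measured 5.68, 5.05 and 5.61 CPM in Control and 0.971 to 2.08 CPM after ARID1A and 1.69 to 2.71 CPM after ARID1B silencing. Its log2 changes were -1.95 (SE 0.14, FDR 8.77e-20) and -1.21 (SE 0.13, FDR 7.28e-13). At both sites ARID1A silencing gave the lower values.

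The opposite order was found at other sites. The site at chr1:59634881-59635628, in intron 11 of the carbohydrate kinase gene FGGY and nearest to the microRNA gene MIR4711, measured 3.71, 3.74 and 4.49 CPM in Control. It measured 1.05 to 1.71 CPM after ARID1A and 0.583 to 0.920 CPM after ARID1B silencing, without overlap between the subunits. The log2 changes were -1.54 (SE 0.15, edgeR FDR 3.21e-14) and -2.36 (SE 0.16, FDR 5.86e-22). An intergenic site at chr1:55774522-55775549, nearest to MIR4422, went from 5.63, 5.92 and 6.17 CPM in Control to 1.51 to 3.19 CPM after ARID1A and 0.798 to 2.39 CPM after ARID1B silencing, ranges that overlap. In intron 2 of CACHD1, which encodes an auxiliary calcium channel subunit, the site at chr1:64623513-64625374 held 13.2, 14.4 and 15.0 CPM in Control. It measured 5.56 to 9.93 CPM after ARID1A and 5.50 to 7.22 CPM after ARID1B silencing, and 2.28 to 3.18 CPM with the combinations.

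Sites nearest MIR378G, RP4-544H6.2 and MGC34796 completed the 8 lowest, and fell by 1.33 to 1.93 on the log2 scale after ARID1A and by 1.25 to 1.58 after ARID1B silencing. The ARID1B shRNAs differed at some of them. The MIR378G site, in intron 1 of LINC01057, changed by -0.53 with shARID1B.2 (edgeR FDR 0.0209) and by -1.96 with shARID1B.3 (FDR 5.09e-17), and the MGC34796 site by -0.60 and -2.57.

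**Figure D3:**
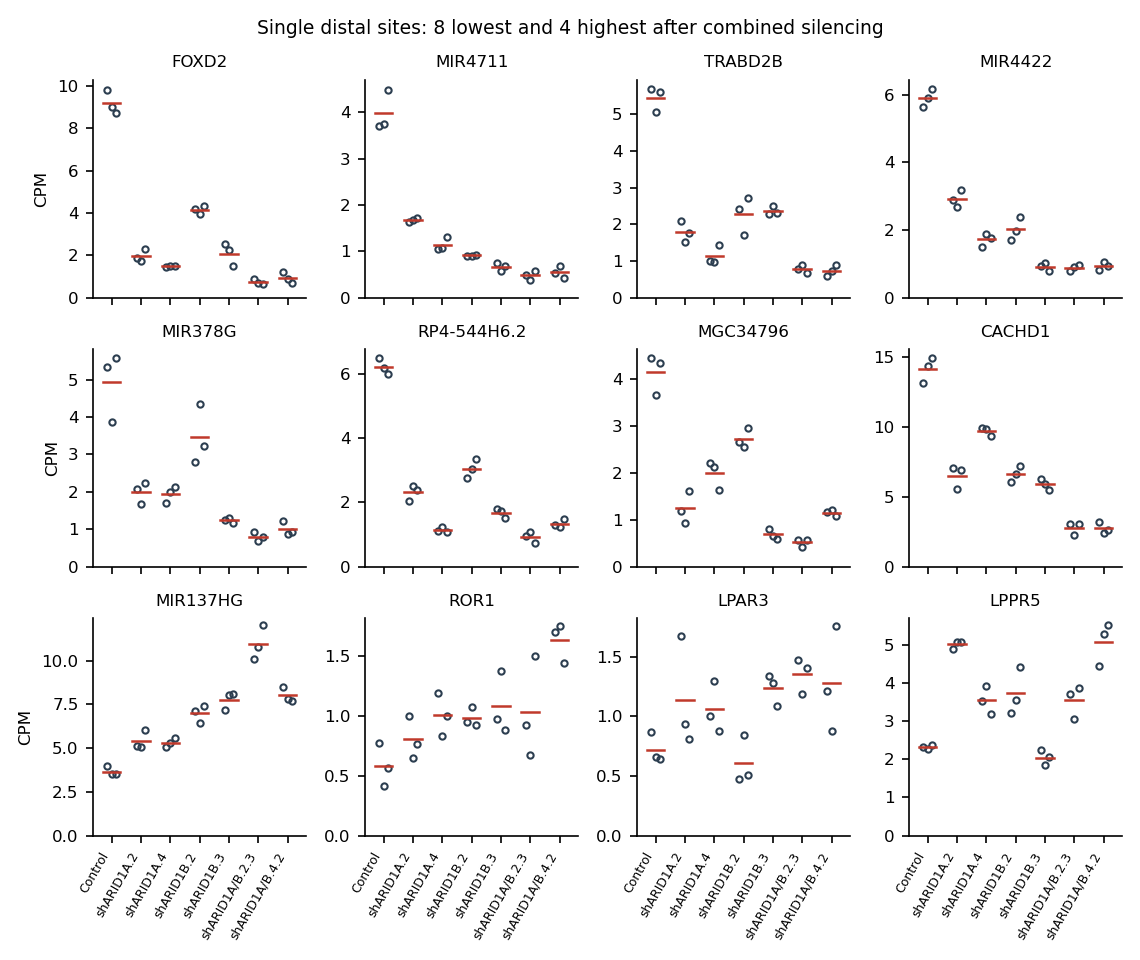
Accessibility in CPM (linear axes from 0, set for each panel) of the 8 distal sites with the lowest and the 4 with the highest combined log2 change, named by nearest gene. Only sites with a mean of at least 1 CPM entered, at most 1 per nearest gene. Circles are the 3 libraries of each of the 7 groups and red lines their means, and the Control libraries lie above all silenced libraries in the first 8 panels, except that the lowest Control library of MIR378G (3.86 CPM) lies below the highest shARID1B.2 library (4.35 CPM).

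Rises were few. The highest site, at chr1:98128509-98130675 and 79899 bases from MIR137HG, the host gene of a brain-enriched microRNA, measured 3.95, 3.49 and 3.53 CPM in Control. It rose to 5.04 to 6.02 CPM after ARID1A silencing (log2 change 0.55, SE 0.13, edgeR FDR 0.000757) and to 6.43 to 8.07 CPM after ARID1B silencing (1.02, SE 0.12, FDR 6.13e-11), with 7.70 to 12.0 CPM in the combinations. The ARID1A call was lost without Control replicate 3 and with libraries scaled on promoter sites. The site near LPPR5 (PLPPR5), which encodes a neuronal membrane protein related to lipid phosphatases, rose after ARID1A silencing from 2.26 to 2.37 CPM in Control to 3.19 to 5.08 CPM (0.87, SE 0.15, FDR 2.17e-06). With ARID1B its shRNAs diverged, at 0.70 with shARID1B.2 (FDR 0.00402) and -0.19 with shARID1B.3 (FDR 0.571). The sites near ROR1 and the lysophosphatidic acid receptor gene LPAR3 passed in neither single comparison.

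By nearest gene, with distal counts summed, 121 of 398 genes (30.4%) fell after ARID1A silencing and none rose, against 14.1% and 2.09% of all genes. After ARID1B silencing 96 (24.1%) fell and 5 (1.26%) rose, against 8.12% and 2.64%. After combined silencing 206 lay below and 4 above the threshold, beside 25.8% and 5.50%.

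Among genes with at least 5 distal sites, both ends were picked by the change after combined silencing. The tests against Control reuse the Control libraries of that contrast. The gene with the lowest combined value was TRABD2B. Its 28 distal sites summed to 82.1, 70.7 and 82.7 CPM in Control, to 35.3 to 44.2 CPM (median 37.3, n = 6) after ARID1A silencing, to 46.6 to 55.9 CPM (median 53.2) after ARID1B silencing and to 22.6 to 29.5 CPM in the combinations. The ranges of Control, ARID1A silencing and ARID1B silencing did not overlap. The log2 change was -1.02 (SE 0.07, edgeR FDR 6.89e-10) and -0.60 (SE 0.07, FDR 1.33e-06), and 19 and 14 of the 28 sites fell. PPAP2B, with 5 distal sites, went from 18.8, 18.6 and 18.5 CPM in Control to 9.03 to 12.5 CPM after ARID1A and 10.8 to 13.3 CPM after ARID1B silencing (-0.83, FDR 5.78e-09, and -0.63, FDR 2.24e-07). The microRNA gene MIR4711 had 13 sites that changed by -0.72 and -0.73, and LOC102724140 had 26 that changed by -0.59 and -0.52. MGC34796, LOC101927542, MIR760 and the scaffold gene KANK4 also fell in both comparisons, by 0.53 to 0.70 on the log2 scale for ARID1A and by 0.48 to 0.64 for ARID1B.

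The genes at the upper end were ZRANB2-AS1, MIR137HG, LPPR5 and the meiotic helicase gene HFM1. MIR137HG measured 14.6, 14.1 and 14.1 CPM in Control and 16.03 to 19.1 CPM after ARID1B silencing (0.30, SE 0.05, edgeR FDR 0.000291), but 13.9 to 15.4 CPM after ARID1A silencing (0.05, FDR 0.519). ZRANB2-AS1 rose after ARID1B silencing by 0.41 (FDR 0.000739). Both calls after ARID1B silencing were lost with libraries scaled on promoter sites, while the estimates stayed positive. LPPR5 and HFM1 passed in neither comparison.

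The genes were then grouped into 6 lists, of few genes each, whose shares are read against the 14.1% and 8.12% of all genes and the 30.4% and 24.1% of the stretch's genes that fell after ARID1A and ARID1B silencing. Of 16 developmental transcription factor genes with distal sites, 5 (31.2%) fell after ARID1A and 4 (25%) after ARID1B silencing, both near the shares of the stretch, with medians of -0.24 and -0.23, beside medians of -0.02 and 0.02 over all genes of the table. FOXD2, with 19 distal sites, went from 63.1, 56.4 and 66.8 CPM in Control to 37.0 to 41.7 CPM after ARID1A and 38.8 to 49.6 CPM after ARID1B silencing, at -0.63 (edgeR FDR 3.62e-07) and -0.51 (FDR 9.04e-06). The DM-domain gene DMRTB1 changed by -0.41 and -0.46, while its relative DMRTA2 (-0.20 and -0.17) and the LIM-homeobox gene LHX8 (-0.23 and -0.22) passed in neither. With libraries scaled on promoter sites both genes passed in both comparisons, LHX8 at -0.43 (FDR 0.000466) and -0.37 (FDR 0.00326). DMRTB1 lost its ARID1A call in 4 of the fits without a single library, namely Control replicates 1 and 3, shARID1A.2 replicate 2 and shARID1A.4 replicate 2, and its ARID1B call without Control replicate 1 or 3.

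Of 19 neuronal and axonal genes, 7 (36.8%) fell after ARID1A and 6 (31.6%) after ARID1B silencing, beside 30.4% and 24.1% of the stretch's genes, with medians of -0.29 and -0.16. The sialyltransferase gene ST6GALNAC3, with 31 distal sites, measured 78.6 to 82.3 CPM in Control, 53.2 to 59.97 CPM after ARID1A and 51.2 to 66.2 CPM after ARID1B silencing (-0.54, edgeR FDR 6.62e-09, and -0.46, FDR 7.92e-08). LPHN2 (ADGRL2), a latrophilin adhesion receptor, changed by -0.29 and -0.28, and LRRC7, a postsynaptic scaffold, by -0.45 and -0.26 (FDR 0.00506). The neural adhesion gene NEGR1 stood at -0.30 and -0.14 (FDR 0.0231 and 0.321), and passed after ARID1A silencing with promoter scaling (-0.50, FDR 0.00197). The LPHN2 calls were lost without Control replicate 2, and the LRRC7 call after ARID1B silencing without any 1 of 6 libraries (Control replicates 1 and 2, shARID1B.2 replicates 2 and 3, shARID1B.3 replicates 1 and 2).

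Of 17 adhesion, matrix and mesenchymal genes, 5 (29.4%) fell after ARID1A and 6 (35.3%) after ARID1B silencing, beside 30.4% and 24.1% in the stretch, with medians of -0.08 and -0.14. TGFBR3 (betaglycan, a TGF-beta co-receptor) went from 38.1, 32.6 and 34.2 CPM in Control to 20.8 to 23.7 CPM after ARID1A and 22.3 to 32.6 CPM after ARID1B silencing, where the highest library (32.56 CPM) lay just below the lowest Control library (32.63 CPM). Its log2 changes were -0.65 (edgeR FDR 9.38e-09) and -0.35 (FDR 3.16e-05). PALMD fell by 0.38 and 0.29, the latter lost without Control replicate 1 or 3. ELTD1, with the most distal sites of any listed gene (43), and the collagen gene COL24A1 gave -0.16 to 0.01 and did not pass.

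Of 18 signalling genes, 9 (50%) fell after ARID1A and 5 (27.8%) after ARID1B silencing, beside 30.4% and 24.1% in the stretch, with medians of -0.32 and -0.24. GADD45A, a growth arrest gene, measured 72.1 to 77.7 CPM in Control, 44.9 to 56.9 CPM after ARID1A and 43.9 to 67.1 CPM after ARID1B silencing (-0.59, edgeR FDR 2.58e-09, and -0.45, FDR 1.39e-07). The orphan receptor gene ROR1 fell by 0.47 after ARID1A silencing and stood at -0.24 (FDR 0.0194) after ARID1B silencing, where it passed with libraries scaled on promoter sites (-0.39, FDR 7.07e-05). PDE4B, a cAMP phosphodiesterase, fell after ARID1A silencing (-0.32, FDR 0.000468), a call lost without Control replicate 2, and stood at -0.07 after ARID1B silencing. JAK1 passed narrowly in both (FDR 0.00861 and 0.00456), but without any 1 of 8 and any 1 of 5 libraries it did not, nor after ARID1A silencing with DESeq2 size factors (FDR 0.0159).

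Of 7 cell cycle and replication genes with distal sites, 1 (14.3%) fell after ARID1A and 3 (42.9%) after ARID1B silencing, too few to set against the shares of the stretch, with medians of -0.03 and -0.23. USP1, a deubiquitinase of DNA repair, fell in both (-0.63 and -0.48, 3 sites). CDC7, the kinase that fires replication origins, stood at -0.27 (edgeR FDR 0.0114) after ARID1A silencing, where it passed with promoter scaling (-0.47, FDR 0.000226), and fell by 0.47 (FDR 9.13e-05) after ARID1B silencing. DEPDC1 passed after ARID1B silencing only at FDR 0.00898, which 7 of the fits without a library and DESeq2 size factors (FDR 0.012) lost, and the histone chaperone gene NASP, with 2 sites, stood at 0.18 and 0.37. Of 14 metabolic and housekeeping genes, 4 (28.6%) fell after ARID1A and 5 (35.7%) after ARID1B silencing, beside 30.4% and 24.1% in the stretch, with medians of -0.23 and -0.30. Cystathionine gamma-lyase (CTH) fell by 0.44 in both and SERBP1 by 0.62 and 0.47, the latter lost without any 1 of 5 libraries, whereas the glucose transporter gene SLC2A1 stood at -0.27 and -0.25 (FDR 0.0203 and 0.0393) and passed in both with promoter scaling (FDR 5.85e-07 and 1.38e-05). By summed distal counts no gene of the 6 lists rose in either comparison, near the 2.09% and 2.64% of all genes. In each list the combined median was lower than 0, from -0.16 for the cell cycle genes to -0.62 for the metabolic genes.

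ARID1A and ARID1B silencing were compared directly, a contrast with no library in common with the one that chose the stretch. Of the distal members, 209 (8.99%) were lower after ARID1A than after ARID1B silencing, against 3.77% of all distal sites, and 70 (3.01%) were higher, against 0.929%. The median difference was -0.02 on the log2 scale, beside 0.00 over all distal sites. In the first 40 Mb of the chromosome 10.9% and at the start of chromosome 3 9.59% were lower, so that both gave shares above that of the stretch. By bin, 7 of 60 (11.7%) were lower, against 13.3% of all bins, a share near the background, and only 4 were called without any 1 of 5 libraries (shARID1A.4 replicates 1 and 2, shARID1B.2 replicate 3, shARID1B.3 replicates 1 and 2). By gene, 43 of 398 (10.8%) were lower, against 9.26%, and 15 (3.77%) higher, against 1.43%.

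RP11-397C12.1, with 11 distal sites, summed to 20.2, 22.4 and 21.3 CPM in Control, to 12.8 to 17.5 CPM after ARID1A silencing and to 21.02 to 25.4 CPM after ARID1B silencing. The subunits did not overlap, and the difference was -0.61 (SE 0.05, edgeR FDR 3.47e-08). UOX, a urate oxidase pseudogene in humans, had 5 sites that measured 17.8 to 18.4 CPM in Control, 11.5 to 14.6 CPM after ARID1A and 16.9 to 22.3 CPM after ARID1B silencing (-0.58, SE 0.05, FDR 9.25e-08). Among genes with at least 5 distal sites LOC102723480 had the lowest value (-0.66, FDR 1.18e-05), and MIR3116-2 (-0.55, FDR 3.23e-05) and LINC00466 (-0.54, FDR 0.000126) came next. At these 5 genes ARID1B silencing against Control gave -0.15 to 0.27 and passed at none, except LINC00466 with promoter scaling (FDR 0.00384). TRABD2B (-0.43, FDR 2.1e-05), TGFBR3 (-0.30, FDR 5.78e-05), MIR137HG (-0.25, FDR 0.000279) and PDE4B (-0.25, FDR 0.00118) were also lower after ARID1A silencing.

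In the other direction LPPR5 stood first among genes with at least 5 distal sites. Its 7 distal sites summed to 5.73 to 9.07 CPM after ARID1A and 4.57 to 6.76 CPM after ARID1B silencing, beside 5.63 to 6.74 CPM in Control (0.40, SE 0.07, edgeR FDR 0.000326), ranges that overlap. DIRAS3, an imprinted gene for a growth-suppressing small GTPase, measured 8.77 to 12.9 CPM after ARID1A and 7.62 to 9.62 CPM after ARID1B silencing (0.32, FDR 0.00277), and fell in both against Control, after ARID1A silencing not without Control replicate 2. RP4-639F20.1 (0.28, FDR 0.00302), the acyl-CoA dehydrogenase gene ACADM (0.25, FDR 0.00134) and the ubiquitin-conjugating enzyme gene UBE2U (0.24, FDR 0.00215) followed. DIRAS3 lost the call without any 1 of 6 libraries and RP4-639F20.1 without any 1 of 3, and with libraries scaled on promoter sites DIRAS3, RP4-639F20.1 and ACADM no longer passed.

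**Figure D4:**
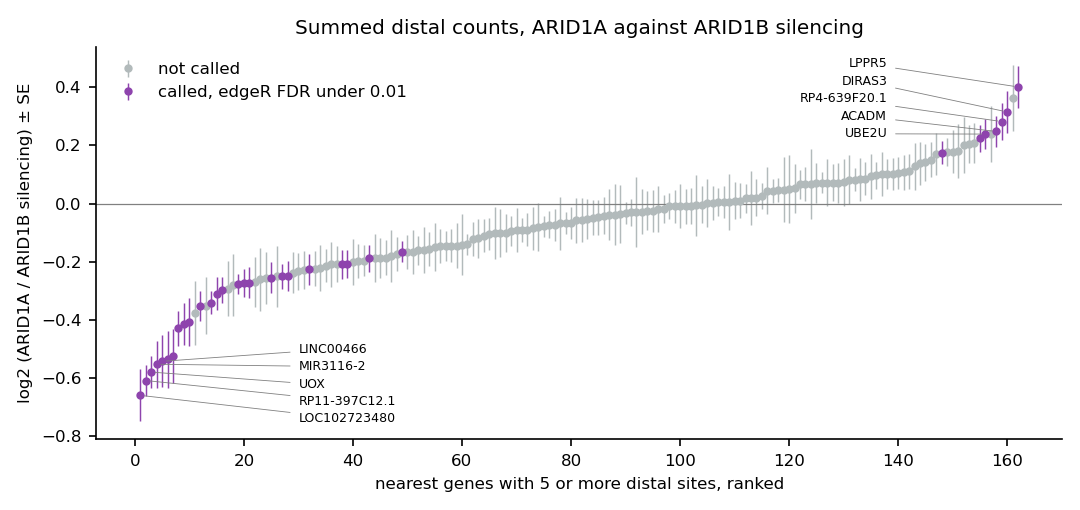
Log2 difference between ARID1A and ARID1B silencing, with SE, of the summed distal counts of the 162 nearest genes with at least 5 distal sites, in rank order. Called genes are purple, and the genes named are the 5 lowest and the 5 highest called, from -0.66 at LOC102723480 to 0.40 at LPPR5.

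Promoters were counted apart from distal sites. After ARID1A silencing 2 of 201 promoter members fell and 23 (11.4%) rose, against 2.00% and 17.4% of all promoters. With libraries scaled on promoter sites 14 (6.97%) fell and 1 rose, against 5.83% and 2.46%, so that the share that fell was near that of all promoters. After ARID1B silencing none fell and 2 (0.995%) rose, against 1.27% and 9.50%. With promoter scaling 26 (12.9%) fell and none rose, against 5.0% and 3.53%, so that the direction of promoters depends on the scaling. Medians were 0.17 and 0.03, or -0.03 and -0.12 when scaled on promoter sites. That scaling moved the median of all distal sites by -0.20 for ARID1A, -0.15 for ARID1B and -0.23 for combined silencing. Relative to all promoters (0.18 and 0.13), promoters of the stretch lay lower by either scaling after ARID1B silencing. After combined silencing 9 passed downwards and 32 upwards, beside 4.26% and 33.4% of all promoters. With promoter scaling 35 (17.4%) and 1 did so, beside 10.6% and 7.93%. Higher promoter counts also rested on single libraries, with 7 after ARID1A silencing without Control replicate 2, 15 without Control replicate 1, 11 without shARID1A.2 replicate 1 and 46 without shARID1A.2 replicate 2. Summed by bin, 6 of 48 bins with promoters (12.5%) rose after ARID1A and none after ARID1B silencing, below the 18.7% and 2.56% of all bins with promoters. The distal value lay below the promoter value in 48 and 45 of these 48 bins, a count not made over all bins. Medians over all bins had the same order, at -0.09 distal and 0.16 promoter after ARID1A silencing. After ARID1B silencing they were -0.04 and 0.10.

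Between the subunits, promoter members were mostly higher after ARID1A silencing, with 17 (8.46%) higher and 2 (0.995%) lower, against 2.75% and 2.36% of all promoters, and 16 and 2 with promoter scaling. The median difference was 0.13, beside 0.05 over all promoters, and 14.4% of promoter members had a difference below 0, beside 33.6% of all promoters. In the first 40 Mb of the chromosome the median was 0.13, with 17.1% below 0 and 2.55% called higher. At the start of chromosome 3 it was 0.11, with 15.8% below 0 and 5.7% called higher. The shift of the median was thus not particular to the stretch. The higher count was 8 without shARID1A.2 replicate 1, 9 without shARID1A.4 replicate 1, 10 without shARID1B.2 replicate 3 and 11 without shARID1B.3 replicate 3. The share of promoter reads lying in the stretch was 1.25% to 1.28% after ARID1A and 1.17% to 1.23% after ARID1B silencing, without overlap, and 1.29% in each Control library. Both subunits thus lay below Control, by -0.0273 points for ARID1A and -0.0901 for ARID1B (exact permutation p = 0.0238 for each, the smallest possible, and 0.0238 after adjustment over 3 tests), with the Control libraries that entered the choosing contrast. Between the subunits the difference of 0.0628 percentage points had p = 0.00216 in a two-sided exact permutation test, the smallest that 6 against 6 libraries can give, and 0.00648 after adjustment over 3 tests. Each 6 are 3 replicates of 2 shRNAs, with means of 1.27% and 1.26% for ARID1A and 1.22% and 1.18% for ARID1B. The test took libraries as interchangeable, so p does not measure the spread between shRNAs. By gene, 9 of 192 genes with promoter sites (4.69%) were higher and 1 (0.521%) lower, against 1.34% and 1.48% of all genes with promoter counts. Among the 9 was HOOK1, which encodes a linker to microtubules and was picked after the values were seen (0.61, SE 0.08, edgeR FDR 1.19e-05).

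The lowest promoter site, at chr1:92877244-92878585, is annotated as the promoter of FAM69A and lies nearest SNORA66. It measured 2.50, 2.43 and 2.53 CPM in Control, 0.988 to 2.13 CPM after ARID1A and 1.76 to 2.54 CPM after ARID1B silencing. It fell after ARID1A silencing (-0.80, SE 0.17, edgeR FDR 0.000193) and not detectably after ARID1B silencing (-0.19, FDR 0.52). The promoter of CDCP2 fell after ARID1A silencing (-0.76, FDR 0.000165), with -1.29 for shARID1A.2 and -0.23 for shARID1A.4, and lost this call without Control replicate 3. At LOC101930232 the ARID1A shRNAs went opposite ways, with -0.90 (FDR 2.81e-08) for shARID1A.2 and 0.26 (FDR 0.131) for shARID1A.4. Among the highest promoters, those of SSBP3, a cofactor of LIM-domain transcription factors, and of the kinase gene TESK2 rose after ARID1A silencing by 0.47 (FDR 0.000103) and 0.42 (FDR 0.000726), calls that promoter scaling removed while the estimates stayed positive. The EPS15 promoter (0.56 and 0.41) did not pass.

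Distal members differed from other distal sites in more than their response. Their median length was 620 bases against 754, 51.1% lay in introns against 44.3%, and their median distance to the TSS was 48050 against 58504 bases. Distal sites were also short in the first 60 Mb of chromosome 3 (median 614.5 bases) and in the first 40 Mb of chromosome 1 (678 bases). Over all libraries the median accessibility of members was 0.977 CPM against 0.969 CPM. In Control it was 1.17 CPM against 0.98 CPM, and after ARID1A and ARID1B silencing 0.97 and 1.03 CPM against 0.96 and 0.97 CPM. The Control values entered the contrast that chose the stretch, so their excess is no trait apart from the response. Intronic and intergenic members were alike, with 21% and 19.1% falling after ARID1A and 14.9% and 14.8% after ARID1B silencing. More accessible sites are called more often at a given change, so the shares were set side by side within ranges of mean CPM. Below 0.5 CPM 7.82% of members fell after ARID1A silencing against 0.887% of other sites, and at 2 CPM or more 36.0% against 15.6%. For ARID1B silencing these shares were 6.98% against 0.841% and 28.1% against 9.97%. Members thus held the higher share in each of the 4 ranges, and their median log2 change in these ranges was -0.23 to -0.28 for ARID1A and -0.16 to -0.21 for ARID1B.

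**Figure D5:**
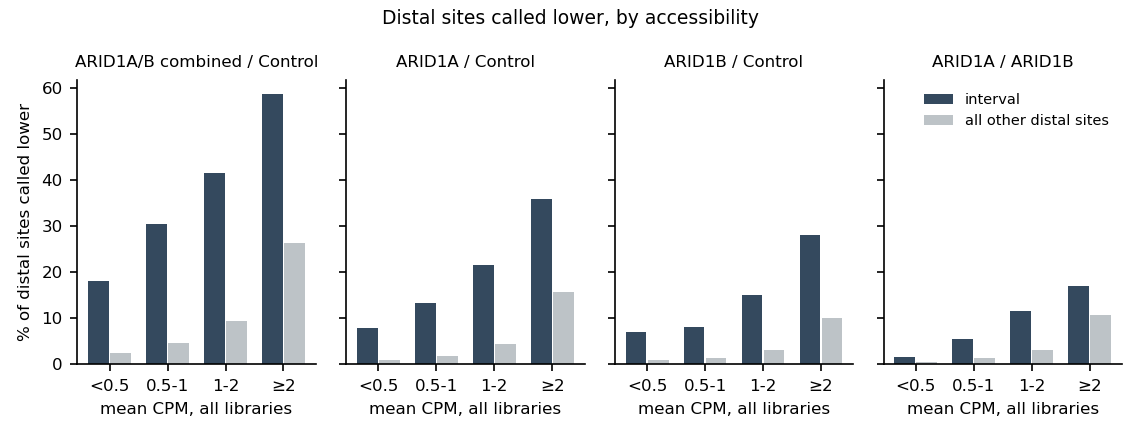
Percent of distal sites called lower (edgeR FDR under 0.01) in 4 ranges of mean CPM over all libraries, for the stretch (dark) and all other distal sites (grey), in each comparison. In all 4 ranges the dark bar is the higher one, for instance 36.0% against 15.6% at 2 CPM or more after ARID1A silencing.

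The short words of the windows shown above were counted in the central 300 bases of all distal sites, as a description without a test. A word found in a window larger than its site (382 members) can lie outside it. CAGATG was present in 40.3% of members that fell after ARID1A silencing and 41.8% of those that fell after ARID1B silencing, beside 26.9% of all distal members and 34.7% and 36.8% of all distal sites that fell. In members lower after ARID1A than after ARID1B silencing, AGATAA stood in 36.8% and TAATTA in 24.4%, beside 22.9% and 11.2% of all distal members and 27.1% and 19.8% of all distal sites lower in that comparison. The other words stood closer, with CAGATG in 32.5%, CAGCTG in 19.1%, GGAATG in 17.2% and TGACTCA in 5.74%. All distal members held these in 26.9%, 20.7%, 15.5% and 6.8%. TGACTCA was found in 5.63% and 5.93% of members that fell in the comparisons with Control, near the 6.8% of all distal members. Median GC content of members that fell was 44.7% and 43.0%, beside 46.0% of all distal members. It was 42.3% in members lower after ARID1A than after ARID1B silencing.

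At its borders the stretch ended within low-accessibility sites. The last site before it, near MFSD2A, measured 0.493 to 1.08 CPM in Control and the first member, near CAP1, 0.658 to 1.08 CPM. The last member, in intron 1 of SLC35A3, measured 0.206 to 0.577 CPM and the site just after it, near HIAT1, 0.329 to 0.561 CPM. After combined silencing these 4 sites stood at 0.34, -0.80, 0.16 and 0.15. The first member was lower after ARID1A (0.366 to 0.878 CPM) than after ARID1B silencing (0.874 to 1.45 CPM), with a difference of -0.85 (SE 0.20, edgeR FDR 0.00164) that was lost in the DESeq2 test (-0.85, adjusted p 0.0139) and without shARID1A.4 replicate 1 or shARID1B.2 replicate 1.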

How the data were processed

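ATAC-Seq read counts per consensus site were deposited by the authors for 21 libraries, 3 per group. GRCh38 and DESeq2 are named in the submitters' processing notes, without versions, and which aligner and peak caller were used was not given in the sources used here. Tables deposited with them also hold the authors' DESeq2 normalized counts, log2 ratios and p-values, which were not used. Counts were fitted in edgeR 4.0.16 (R 4.3.3, quasi-likelihood, 7 group means, TMM scaling, filterByExpr with a minimum count of 10) over 357029 sites, and again summed by 1 Mb bin and nearest gene, with Benjamini-Hochberg adjustment over all features and calls at FDR under 0.01. TMM scaling rests on the assumption that the bulk of sites is unaltered. Each gene was represented by the mean of its 2 shRNA groups. In simulated counts for ARID1A against Control over 357029 sites, 200 sites were changed, drawn only from those above a minimum mean count. Of these, 51% of the halved and 86% of the doubled sites were recovered. Sites below that count were not covered. Shares were tested by exact permutation of libraries, without regard to which shRNA they carried (scipy 1.17.1).

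The stretch and the gene lists were chosen with earlier results of these data known. Named were, by rule, the lowest and highest sites, genes and bins after combined silencing, the 5 genes most different each way between ARID1A and ARID1B silencing, and the 4 genes of each list with most distal sites. Naming took sites with a mean of at least 1 CPM (1 per nearest gene), genes with at least 5 distal sites and bins with at least 20. List genes had no such minimum. Alternatives were another scaling, no filter, DESeq2 1.42.0, a replicate block and leaving out each library. The DESeq2 test and the fit without a filter were run for sites, not for bins and genes.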

Additional observations from a re-analysis of the deposited data

Results flagged for a closer look

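Results are listed here because ARID1A and ARID1B silencing differed from each other in the edgeR test of the difference itself (ARID1A minus ARID1B, log2 scale, FDR under 0.01), or, for the read share, in an exact permutation test. Lower after ARID1A silencing were the sites near FOXD2 (-0.822), TRABD2B (-0.737), MIR137HG (-0.464) and CAP1 (-0.851) and the promoter site near SNORA66 (-0.609). SNORA66 lost the call without shARID1A.4 replicate 1, and CAP1 without that library, without shARID1B.2 replicate 1 and in the DESeq2 test (adjusted p 0.0139). Higher were the sites near MIR4711 (0.817), MIR4422 (0.697), LPPR5 (0.618) and CACHD1 (0.343). Against Control, shARID1A.4 (-1.78) lay below shARID1B.2 (-1.54) at MIR4422, and shARID1B.2 (0.695) above shARID1A.4 (0.629) at LPPR5. At CACHD1 shARID1A.2 (-1.13) lay between shARID1B.2 (-1.10) and shARID1B.3 (-1.26). The shRNAs thus did not separate by gene at MIR4422, LPPR5 and CACHD1, but did at the other single sites listed. CACHD1 lost the call without any 1 of 5 libraries (shARID1A.2 replicates 1 and 3, shARID1A.4 replicate 2, shARID1B.2 replicate 1, shARID1B.3 replicate 3). With libraries scaled on promoter sites it lost the call too (0.291, edgeR FDR 0.0149).

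By summed distal counts, TRABD2B (-0.429), MIR137HG (-0.25), LOC102723480 (-0.659), RP11-397C12.1 (-0.608), UOX (-0.579), MIR3116-2 (-0.552), LINC00466 (-0.542), TGFBR3 (-0.297) and PDE4B (-0.248) were lower after ARID1A silencing. LPPR5 (0.401), DIRAS3 (0.315), RP4-639F20.1 (0.282), ACADM (0.248) and UBE2U (0.239) were higher. At RP4-639F20.1 the ARID1B shRNAs stood apart, at 0.15 with shARID1B.2 and -1.19 with shARID1B.3 against Control. The bins from 56 to 57 Mb (-0.159) and from 83 to 84 Mb (-0.237) were lower after ARID1A silencing, and the share of promoter reads lying in the stretch was higher by 0.0628 percentage points. Against Control, the bin from 56 to 57 Mb changed by -0.849 with shARID1A.2 and -0.444 with shARID1A.4. With shARID1B.2 it changed by -0.289 and with shARID1B.3 by -0.687, so that shARID1B.3 lay below shARID1A.4.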

How the results depend on the processing

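With libraries scaled on promoter sites, the distal medians were -0.691 (combined), -0.463 (ARID1A), -0.332 (ARID1B) and -0.073 (ARID1A against ARID1B), and the promoter medians turned to -0.084, -0.028 and -0.117 against Control. Distal sites lower after ARID1A silencing then numbered 703 (30.2%), beside 9.94% of all distal sites. Distal sites higher numbered 7, 1, 12 and 45 in the 4 comparisons, beside 0.29%, 0.139%, 0.352% and 0.645% of all distal sites. Promoter sites lower and higher numbered 35 and 1 (combined), 14 and 1 (ARID1A) and 26 and 0 (ARID1B). Over all promoters the shares were 10.6% and 7.93%, 5.83% and 2.46%, and 5.0% and 3.53%. Called genes numbered 217 (ARID1A) and 166 (ARID1B), and called bins 48 (ARID1B) and 17 (ARID1A against ARID1B). The DESeq2 test gave 13 distal sites higher (combined), 224 lower and 13 higher (ARID1B) and 1 promoter higher (ARID1B). With no count filter 19 distal sites rose after ARID1A silencing and the median was -0.231. With promoter reads in place of distal reads the share changed by -0.0874 points (combined) and 0.0628 (ARID1A against ARID1B). The cause was not tested.

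Leaving out 1 library at a time gave 18 to 41 distal sites higher and 16 to 65 promoters higher (combined), 7 to 23 distal higher, 1 to 2 promoters lower and 7 to 46 promoters higher (ARID1A), 14 to 26 distal higher and 0 to 4 promoters higher (ARID1B), and 1 to 2 promoters lower, 8 to 23 promoters higher and 4 to 8 bins (ARID1A against ARID1B). The share of distal reads ranged from -0.103 to -0.0917 (ARID1A) and -0.0958 to -0.0812 (ARID1B). Counts that moved by over 1.5 times and are not given above were distal higher without Control replicate 3 (18) and promoters higher without Control replicate 2 (16) or shARID1A/B.2.3 replicate 2 (65) for combined silencing, distal higher without Control replicate 1 (7), shARID1A.2 replicate 2 (23) or shARID1A.4 replicate 1 (7) and promoters lower without Control replicate 3 (1) for ARID1A, distal higher without Control replicates 1 (15), 2 (14) or 3 (14) for ARID1B, and promoters lower without shARID1A.2 replicate 2 or shARID1A.4 replicate 1 (1) between subunits. The 2 promoters higher after ARID1B silencing became 1 without Control replicate 1 or 3, shARID1B.2 replicate 2 or 3 or shARID1B.3 replicate 1 or 2, 0 without Control replicate 2 and 4 without shARID1B.3 replicate 3. Distal sites lower stayed within 1.5 times in all of these fits. Calls of named genes lost and not given above were ACADM after ARID1B silencing without any 1 of 7 libraries (all but Control replicate 3 and shARID1B.2 replicate 1) and MIR3116-2 after ARID1A silencing without any 1 of 4 (Control replicates 1 and 2, shARID1A.2 replicate 2, shARID1A.4 replicate 1).

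The labels number the replicates in every group, but tie no number to a shared day or batch. Same-numbered libraries correlated at r from -0.311 to 0.506 over 63 pairs, and only in Control with shARID1A/B.2.3 were all 3 over 0.1 (0.194, 0.506 and 0.207), so the numbers were not taken as pairs. A replicate block gave 2 promoters lower after ARID1B silencing in place of 0, left the other counts within 1.5 times, ended no named call and added 10, namely LHX8 (FDR 0.00295) and CDC7 (0.00826) and LOC102723480 (0.00146) after ARID1A, LHX8 (0.00557) and ROR1 (0.00866) after ARID1B, and ROR1 (0.00441), ZRANB2-AS1 (0.00889), LRRC7 (0.00758), GADD45A (0.00806) and the bin from 47 to 48 Mb (0.0087) between subunits. The DESeq2 test and the fit without a filter were not run for bins and genes. Running these alternatives for medians and for named sites, genes and bins was chosen after seeing the data. Depth limits sites under 0.5 CPM most.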
